A study of Homo sapiens with 10 samples.

Results

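Semaphorins are guidance proteins, first described for their action on growing axons, that bind plexin receptors on neighbouring cells. Class 3 members are secreted and mostly need a neuropilin as co-receptor, while most members of classes 4 to 7 are held in the membrane. Plexins carry a GTPase-activating domain for small Ras and Rap proteins and act on the cytoskeleton, integrins and cell repulsion, and neuropilins also bind vascular endothelial growth factors. The genes described here are all those whose symbol names a vertebrate semaphorin (SEMA3 to SEMA7), a plexin (PLXNA to PLXND) or a neuropilin (NRP1 or NRP2). This rule found 31 of the 62700 genes in the table: 20 semaphorins, or ligands, and 11 receptors, which are 9 plexins and 2 neuropilins.

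RNA was compared between 5 samples of parental RPE p53-/- cells and 5 samples of the same line with CCAR1 knocked out, in order to see what loss of CCAR1 changes across the genome. RPE cells are a human line from retinal pigment epithelium, and all 10 samples lack p53 and were grown in DMEM/F12 with serum. CCAR1 is a regulator of transcription, splicing and apoptosis. The labels name no clone for the knockout and leave it unsaid whether the replicates come from cultures grown apart, so the p-values cover only the variation among these 10 samples, and that may be technical. In such bulk RNA fewer expressing cells and less RNA per cell cannot be told apart.

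Total counts (M, 1e6) were 52.6 to 65.2 M in replicates 1 to 3, called shallow, and 320.6 to 385.4 M in replicates 4 and 5, called deep. The unit of level is CPM, a count divided by the TMM-scaled library size and multiplied by 1e6. Every mean ± SD is over n = 5 libraries, and each SD also holds the gap between the depths. Adjusted p-values are from edgeR's quasi-likelihood test over 18979 genes, and a gene is said to rise or fall where this is under 0.05. The targeted gene, CCAR1, was at 125 to 173 CPM in parental and 88.5 to 126 CPM in knockout libraries (log2 fold change -0.48 ± 0.14 SE, edgeR adjusted p = 0.0201). Of 15 retinal pigment epithelium markers 4 rose and 7 stayed under 1 CPM in every library, RPE65 among them, while OTX2 averaged 10.9 and 16.6 CPM and KRT18 217 and 183 CPM in parental and knockout cells. Transcripts of skeletal muscle summed to 248 to 636 CPM in shallow libraries but only 7.71 to 9.66 CPM in deep ones, with no muscle marker called between genotypes. Other tissues showed the same split between shallow and deep libraries. Erythroid markers summed to 22.3 to 182 and 0.239 to 0.268 CPM, liver markers to 44.6 to 124 and 1.96 to 3.26 CPM. Leukocyte markers summed to 1.94 to 6.59 and 0.434 to 0.518 CPM.

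Of the 31 members 29 passed the filter on low counts. Among these 7 rose and 7 fell, which is 14 of 29 against 36.6% of all genes tested (19.7% higher and 16.9% lower). Ligands accounted for 4 rises and 5 falls among 18 tested, and receptors for 3 rises and 2 falls among 11. The median log2 fold change was 0.17 over the ligands and -0.04 over the receptors, against 0.02 over all genes, and no test was made between the classes. The parental and knockout ranges were apart for 12 of the 29 members, or 41.4%, against 30.6% of all genes. No member's fold change differed between shallow and deep libraries in the edgeR interaction test (0 of 29 past the threshold, 0 also at an unadjusted p under 0.05, smallest adjusted p 0.357), where 0.601% of all genes did.

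**Figure D1:**
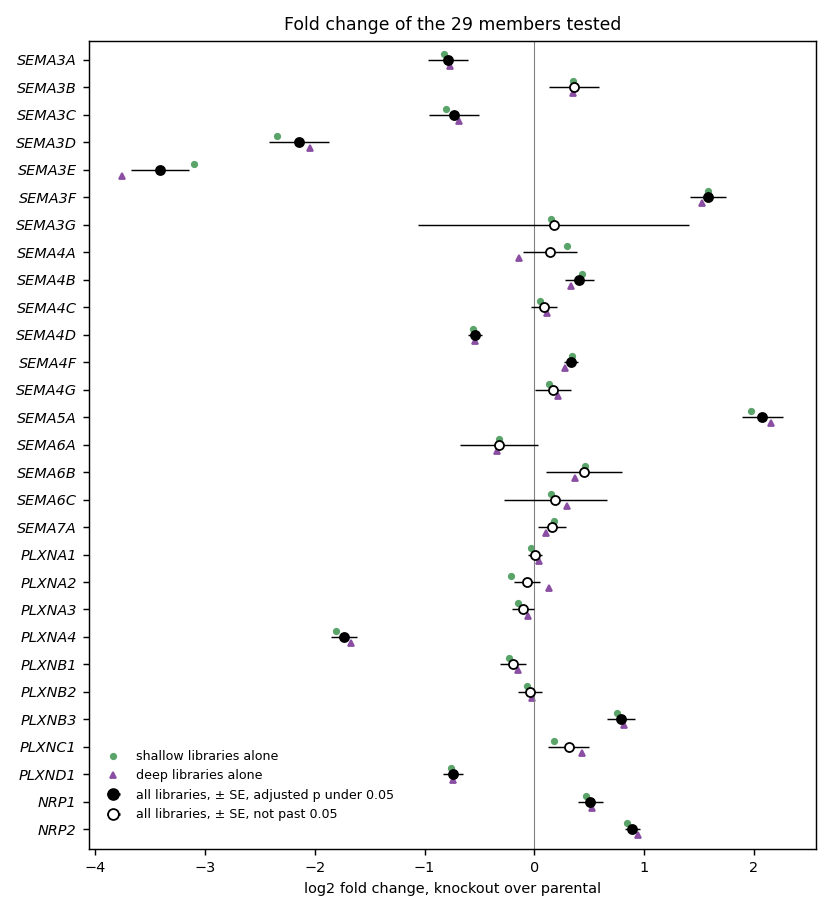
Log2 fold change, knockout over parental, of the 29 members tested (x axis), with bars of ± 1 standard error. Filled points are past an edgeR adjusted p of 0.05, and small symbols give the shallow and the deep libraries fitted alone. SEMA3E at -3.41 and SEMA5A at 2.08 are at the ends.

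The promoters of the 5 members that changed at least 2-fold are shown here. No other member tested changed as much. The choice to show them was made with their directions and base composition known, so they do not stand for all members that rose or fell. Each window holds 250 bases before to 50 bases after the RefSeq start listed first for the gene (GRCh38.p14, 5′ to 3′ on the gene's strand). Capitals mark, on either strand, the SP1-type motif GGGCGG, the NF-Y motif CCAAT and the E-box CAGGTG. The TATA box TATAAA, the TEAD motif GGAATG and the AP-1 motif TGANTCA were searched in the same way. Some copies of GGGCGG overlap each other by 1 base. SEMA3F and SEMA5A rose in the knockout and the others fell.

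SEMA3F (chr3:50154808-50155107, plus strand): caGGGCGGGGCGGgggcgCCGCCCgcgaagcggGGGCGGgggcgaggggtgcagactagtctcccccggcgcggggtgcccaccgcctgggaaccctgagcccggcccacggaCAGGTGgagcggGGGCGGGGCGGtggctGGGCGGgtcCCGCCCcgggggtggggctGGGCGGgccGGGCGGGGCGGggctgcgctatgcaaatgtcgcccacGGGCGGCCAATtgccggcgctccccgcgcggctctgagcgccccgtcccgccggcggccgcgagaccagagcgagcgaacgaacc

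SEMA5A (chr5:9546026-9546325, minus strand): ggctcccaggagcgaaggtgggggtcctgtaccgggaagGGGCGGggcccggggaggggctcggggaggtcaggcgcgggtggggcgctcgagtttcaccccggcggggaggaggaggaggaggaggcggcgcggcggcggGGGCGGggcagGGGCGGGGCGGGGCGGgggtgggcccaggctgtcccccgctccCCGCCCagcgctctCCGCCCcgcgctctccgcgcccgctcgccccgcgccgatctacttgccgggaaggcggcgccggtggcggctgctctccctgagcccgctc

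PLXNA4 (chr7:132576421-132576720, minus strand): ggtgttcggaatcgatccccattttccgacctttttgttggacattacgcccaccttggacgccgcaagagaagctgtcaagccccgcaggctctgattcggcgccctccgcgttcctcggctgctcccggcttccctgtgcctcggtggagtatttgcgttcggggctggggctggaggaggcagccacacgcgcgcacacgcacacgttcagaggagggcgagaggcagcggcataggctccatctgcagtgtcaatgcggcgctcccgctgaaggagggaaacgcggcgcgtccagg

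SEMA3D (chr7:85187007-85187306, minus strand): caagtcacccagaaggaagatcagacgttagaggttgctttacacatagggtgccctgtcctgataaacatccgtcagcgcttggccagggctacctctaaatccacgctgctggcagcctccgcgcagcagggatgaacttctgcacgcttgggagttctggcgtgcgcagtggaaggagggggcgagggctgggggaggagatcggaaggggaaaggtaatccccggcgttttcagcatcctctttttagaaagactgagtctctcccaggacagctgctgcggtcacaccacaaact

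SEMA3E (chr7:83649090-83649389, minus strand): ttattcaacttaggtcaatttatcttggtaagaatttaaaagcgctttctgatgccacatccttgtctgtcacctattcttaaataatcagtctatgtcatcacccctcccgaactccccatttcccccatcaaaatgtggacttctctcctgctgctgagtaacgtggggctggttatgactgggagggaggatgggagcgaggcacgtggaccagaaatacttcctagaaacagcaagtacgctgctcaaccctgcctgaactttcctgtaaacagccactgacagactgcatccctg

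The windows of SEMA3F and SEMA5A held 44 and 39 CpG dinucleotides and 12 and 7 copies of GGGCGG. Those of PLXNA4, SEMA3D and SEMA3E held 30, 14 and 6 CpG dinucleotides and 0 copies of any motif searched. Promoter windows were found for 27 of the 31 members. NRP1, SEMA3A, SEMA6A and SEMA6B had none in the table. Taking the first window of each matched gene, GGGCGG was in 6 of 6 members that rose, 2 of 6 that fell and 11 of 15 that were not called or not tested, against 45.0% of all 35116 windows. The median number of CpG dinucleotides was 35 in those that rose, 10 in those that fell and 15 in the rest, and 14 over all windows. CAGGTG was in 3, 0 and 3 of these groups and in 20.6% of all windows, CCAAT in 3, 1 and 3 and in 34.6%, GGAATG in 1, 0 and 1 and in 14%, TGANTCA in 0, 0 and 1 and in 7.7%, and TATAAA in none of them and in 11.5%. These are matches of letters at a listed start, which may not be the start used in these cells, and 2 members that rose, 2 that fell and 8 of the rest have further listed starts. Counting any listed start, GGGCGG was in 6 of 6 members that rose, 3 of 6 that fell and 15 of 15 others. The median of each gene's highest CpG count was then 35, 22 and 32. The 45.0% is per single window, and no share over any listed start was counted for all genes. SEMA3C accounts for the change among those that fell, since its window listed first held 2 CpG dinucleotides and no GGGCGG and its other window 46 and 3 copies. By the window listed first, PLXND1, which fell, held 52 CpG dinucleotides and 9 copies of GGGCGG. PLXNB3, which rose, held 15 and 2. The CpG counts of these first windows ranged from 2 to 52 in members that fell and from 15 to 44 in those that rose. The PLXNA4 window lies inside the span that GENCODE gives the gene, and the SEMA3D window lies outside its gene's span. Bases after the first listed start were found in a GENCODE transcript of the gene for 14 of the 27 members. SEMA3F, SEMA5A and PLXNA4 were among these, and SEMA3D and SEMA3E were not.

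Per kilobase of the longest annotated transcript, SEMA7A, a membrane-anchored semaphorin that also binds integrins, had the highest level of the family in both genotypes, at 86.9 ± 12.6 CPM per kilobase in parental and 97.3 ± 14.9 in knockout cells. SEMA3C at 43.7 ± 11.0 and NRP1 at 39.4 ± 4.54 followed in parental cells and did not differ beyond their spread, and PLXNB2 came next at 33.0 ± 4.40. PLXNA4 at 13.2 ± 1.34 ranked 5 in parental and 15 in knockout cells, where it stood at 3.99 ± 0.616 CPM per kilobase. SEMA3F went from rank 11 at 6.42 ± 1.41 to rank 5 at 19.2 ± 3.40. With merged exon length in place of the longest transcript the 5 highest parental members were the same 5 genes, but PLXNB2 at 28.99 came before NRP1 at 20.1 CPM per kilobase, and SEMA3F went from rank 7 to rank 5. At the low end 9 members had a parental mean under 0.5 CPM per kilobase, and SEMA6D and SEMA5B were last. These last members had 1 to 19 and 0 to 16 counts per library, and a count of 0 allows up to 0.0472 CPM at 3 counts in that library.

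**Figure D2:**
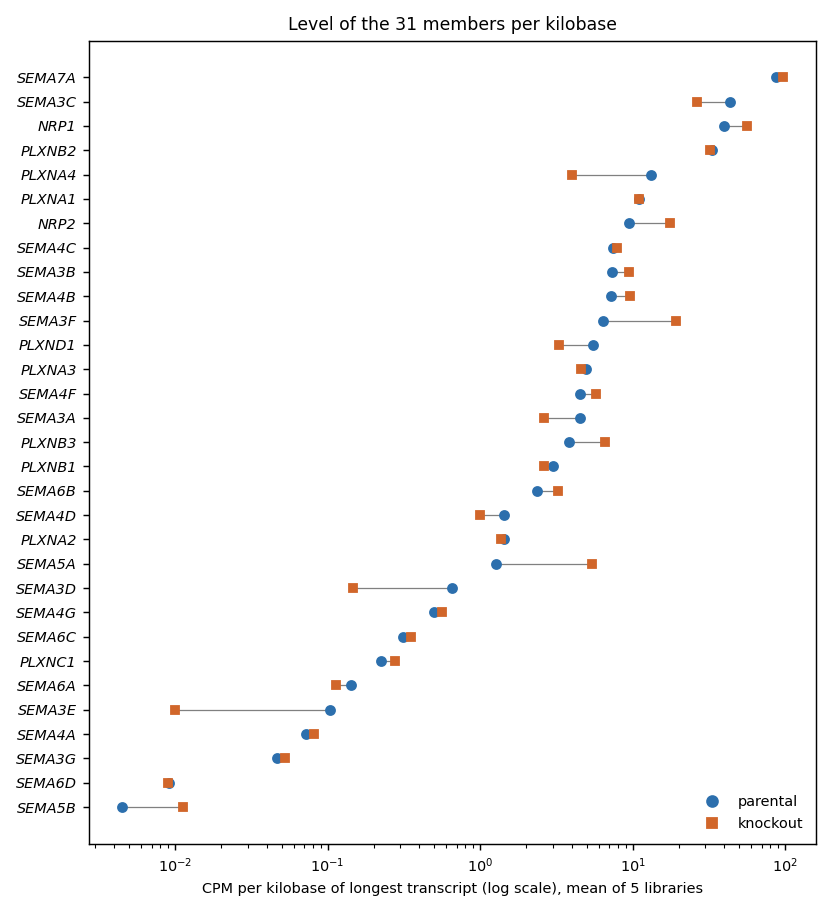
Mean level of the 31 members in CPM per kilobase of longest transcript (log x axis), parental as circles and knockout as squares, over 5 libraries each. SEMA7A is highest in both, and the longest connecting lines are those of SEMA3E, SEMA3D, SEMA5A, PLXNA4 and SEMA3F.

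Class 3, the secreted ligands, divided by direction: 4 of its 7 members fell, SEMA3F rose, and SEMA3B and SEMA3G were not called. That is 71.4% called, against 36.6% of all genes tested. The 4 that fell, SEMA3A, SEMA3C, SEMA3D and SEMA3E, lie together on chromosome 7 between positions 80742538 and 85186855 (hg38), a stretch of 4.444 Mb. SEMA3E (ENSG00000170381.15, chromosome 7, 83363238 to 83649113), which binds plexin D1 directly, was the rarest of them. Its levels in replicates 1 to 5 were 0.567, 0.777, 0.619, 0.923 and 0.892 CPM in parental and 0.0931, 0.0962, 0.0359, 0.0758 and 0.0595 CPM in knockout libraries. All knockout libraries lay under all parental libraries, and its log2 fold change was -3.41 ± 0.26 SE (edgeR adjusted p = 4.65e-06). This rests on 748 counts in all parental and 58 in all knockout libraries, so the size of the fold is imprecise. A filter of 1 CPM in 5 libraries removes the gene.

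SEMA3D (chromosome 7, 84995553 to 85186855), a ligand studied in heart and vessel patterning, was at 3.18, 3.25, 3.62, 5.22 and 5.34 CPM in parental replicates 1 to 5. In knockout replicates 1 to 5 it was at 0.745, 0.635, 0.611, 1.32 and 1.27 CPM, a 4.43-fold fall (edgeR adjusted p = 1.61e-04). The deep libraries of each genotype were higher than the shallow ones, and the genotypes did not overlap. SEMA3A (chromosome 7, 83955777 to 84492724), the axon-repelling ligand of neuropilin 1, was at 33.0, 32.0, 30.4, 46.1 and 45.4 CPM in parental libraries. In knockout libraries it was at 19.7, 16.9, 17.5, 27.3 and 27.0 CPM, again with ranges apart (log2 fold change -0.78 ± 0.18 SE, edgeR adjusted p = 0.00668).

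SEMA3C (chromosome 7, 80742538 to 80922359), the most abundant secreted member, was at 179, 188, 187, 291 and 285 CPM in parental replicates 1 to 5 and at 116, 108, 93.9, 179 and 183 CPM in knockout ones. The deep knockout libraries reached the level of the shallow parental ones, so the pooled ranges met, while within each depth all knockout libraries were lower. Its log2 fold change was -0.73 ± 0.23 SE (edgeR adjusted p = 0.0283), with -0.81 in shallow libraries, -0.69 in deep ones and an exact two-sided permutation p of 0.0159. The call was lost in 5 of the 10 fits that leave out a library, namely knockout replicate 1 (adjusted p = 0.063), 2 (0.063) or 3 (0.0551) and parental replicate 4 (0.0665) or 5 (0.0684), and kept with the replicate number as a block (1.81e-06).

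Protein-coding genes of chromosome 7 were lower as a whole, with 266 of 646 lower, 59 higher and a median log2 fold change of -0.30. With each chromosome's median subtracted, the log2 fold change of SEMA3A was -0.486 (edgeR adjusted p = 0.0651) and that of SEMA3C -0.435 (0.179), so neither was called. SEMA3D at -1.85 (4.47e-04) and SEMA3E kept their calls. Between the outer ends of the 4 semaphorins only 2 other protein-coding genes were tested. CACNA2D1, a calcium channel subunit, was at 27.9 and 21.2 CPM (edgeR adjusted p = 0.159), and PCLO, a presynaptic scaffold, rose from 2.15 to 3.82 CPM (0.0192). With the replicate block CACNA2D1 was called lower (log2 fold change -0.40, edgeR adjusted p = 1.88e-05) and PCLO higher (0.83, 3.92e-05).

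SEMA3F (ENSG00000001617.12, chromosome 3, 50155045 to 50189075), the ligand of neuropilin 2, was at 33.3, 23.9, 24.4, 20.3 and 20.1 CPM in parental and 84.8, 83.2, 79.2, 59.2 and 59.0 CPM in knockout libraries. Each knockout library was above every parental one, a 3.00-fold rise (log2 fold change 1.58 ± 0.17 SE, edgeR adjusted p = 4.23e-05). SEMA3B, its neighbour on chromosome 3, ranged from 16.9 to 32.9 CPM in parental and 21.3 to 38.7 CPM in knockout libraries. It was not called over all libraries (log2 fold change 0.36, edgeR adjusted p = 0.26) and was called with the replicate block (0.37, 3.4e-04). Among the 43 other protein-coding genes tested within 1 Mb of these ligands 17 rose and 1 fell, which is 41.9% called. Over 784 protein-coding genes of chromosome 3, 173 rose and 82 fell, which is 32.5%. The median log2 fold changes were 0.25 and 0.04. SEMA3F shares 110 exon bases with SEMA3F-AS1 on the other strand, which was under 1 CPM in the mean of each genotype. SEMA3G stayed at 2 to 28 counts per library, averaged 0.373 CPM in shallow and 0.0124 CPM in deep parental libraries, and was not called. Transcripts of muscle, erythroid cells, liver and leukocytes, given above, were also higher in the shallow libraries, and their part in SEMA3G was not tested.

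**Figure D3:**
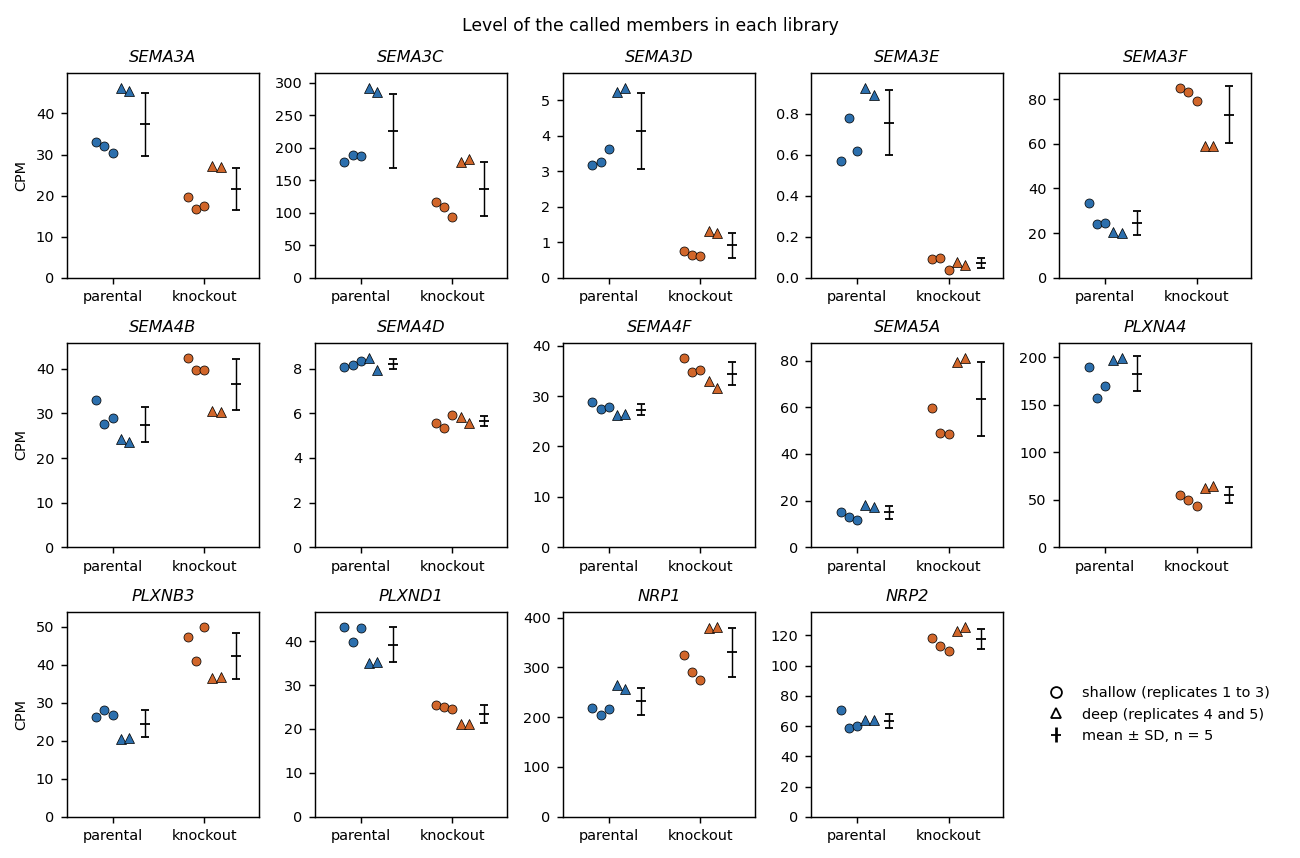
Level in CPM (y axis, from 0) of the 14 called members in each library, parental and knockout, with circles for shallow and triangles for deep libraries and the mean ± SD over 5 libraries beside them. The genotypes are apart for 12 genes and meet for SEMA3C and SEMA4B.

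Among the 13 ligands of classes 4 to 7, 11 were tested, 3 rose and 1 fell. That is 36.4% called, near the 36.6% of all genes tested. SEMA5A (ENSG00000112902.12, chromosome 5, 9035026 to 9546075), a membrane protein with thrombospondin repeats, had the largest rise of the family. It was at 15.1, 12.8, 11.7, 18 and 17.5 CPM in parental libraries and at 59.5, 49.0, 48.6, 79.3 and 81.2 CPM in knockout libraries. No library of one genotype reached the other, and the fold was 4.23 (log2 fold change 2.08 ± 0.19 SE, edgeR adjusted p = 1.56e-05). The 5 protein-coding genes tested within 1 Mb of it had a median log2 fold change of 0.09. Of these 1, the hydrolase gene CMBL, rose, or 20% called against 36.6% of all genes tested.

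SEMA4D (chromosome 9, 89360787 to 89498130), the ligand of plexin B1, was the member of this group that fell. Parental replicates 1 to 5 were at 8.08, 8.16, 8.35, 8.49 and 7.92 CPM and knockout replicates at 5.58, 5.33, 5.91, 5.82 and 5.58 CPM. Its level hardly differed with depth, and the genotypes were apart (log2 fold change -0.54 ± 0.064 SE, edgeR adjusted p = 8.56e-05). SEMA4F, a class 4 member of the nervous system, was at 28.7, 27.5, 27.8, 26.2 and 26.4 CPM in parental and 37.6, 34.7, 35.2, 32.9 and 31.6 CPM in knockout libraries, a 1.26-fold rise with ranges apart (edgeR adjusted p = 0.002).

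SEMA4B was at 33.1, 27.5, 29, 24.2 and 23.5 CPM in parental and 42.4, 39.7, 39.6, 30.4 and 30.4 CPM in knockout libraries. The deep knockout libraries lay under parental replicate 1, so the pooled ranges met (log2 fold change 0.41 ± 0.13 SE, edgeR adjusted p = 0.0294). The call was lost without knockout replicate 1 (edgeR adjusted p = 0.0836), 2 (0.0776) or 3 (0.0736), or parental replicate 2 (0.0656), 4 (0.0691) or 5 (0.0708), and kept with the replicate block (1.62e-05).

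The other 7 tested ligands of these classes were not called. SEMA7A was at 250 to 351 CPM in parental and 273 to 370 CPM in knockout libraries (log2 fold change 0.16, edgeR adjusted p = 0.37, and 0.00941 with the replicate block). SEMA6B, at 5.54 to 12.5 and 7.33 to 18.7 CPM, had a log2 fold change of 0.45 (edgeR adjusted p = 0.357, and 2.15e-04 with the block), and SEMA6A one of -0.32 (0.538, and 0.0448 with the block). In the parental cells SEMA6A, SEMA6B and SEMA6C were 2.00, 2.15 and 2.99 times as high in shallow as in deep libraries. SEMA4C and SEMA4G had log2 fold changes of 0.09 and 0.17. SEMA4G shares 1170 exon bases with MRPL43 on the other strand, a gene at 103 CPM in parental cells, so its counts are uncertain. SEMA4A and SEMA6C averaged under 2 CPM in each genotype.

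Of the receptors, 3 rose and 2 fell, which is 45.5% called against 36.6% of all genes tested. NRP1 and NRP2, the co-receptors of class 3 semaphorins and of vascular endothelial growth factors, both rose. NRP1 (ENSG00000099250.18, chromosome 10, 33177492 to 33336262) was at 218, 205, 217, 265 and 257 CPM in parental and 324, 292, 275, 380 and 380 CPM in knockout libraries, with ranges apart (log2 fold change 0.51 ± 0.11 SE, edgeR adjusted p = 0.00542). NRP2 (ENSG00000118257.17, chromosome 2, 205681990 to 205798133) was at 70.4, 58.7, 60.1, 63.7 and 63.9 CPM in parental libraries. In knockout libraries it was at 118, 113, 110, 123 and 125 CPM, a 1.86-fold rise that was alike in shallow and deep libraries (log2 fold changes 0.84 and 0.94, edgeR adjusted p = 3.83e-06 over all). Summed per kilobase, the neuropilins went from 48.96 ± 4.73 to 73.8 ± 9.26 CPM per kilobase of longest transcript (24.7 ± 2.41 to 37.1 ± 4.70 with merged exon length), and the share of NRP2 in the first of these sums from 19.5 ± 1.87% to 24.1 ± 1.71%. The 9 protein-coding genes tested within 1 Mb of NRP2 included 3 that rose and 2 that fell, or 55.6% called.

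PLXNA4 (ENSG00000221866.10, chromosome 7, 132123332 to 132648688), a receptor that transduces SEMA3A with neuropilin 1 and binds class 6 semaphorins, fell most among the receptors. Parental replicates 1 to 5 were at 190, 157, 170, 197 and 199 CPM and knockout replicates at 55.4, 49.6, 43.7, 62.0 and 64.1 CPM. Every knockout library was far under every parental one, and the level was 30.1% of the parental level (log2 fold change -1.73 ± 0.12 SE, edgeR adjusted p = 1.99e-06). With chromosome medians subtracted the log2 fold change was -1.43 (7.61e-06). All 4 other protein-coding genes tested within 1 Mb had negative log2 fold changes, from -0.61 to -0.32, and 3 of them fell. Among these was PODXL, which encodes podocalyxin, from 115 to 76.9 CPM. That is 75% called, where 50.3% of the protein-coding genes tested on chromosome 7 were called.

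The other class A plexins were not called. PLXNA1, a co-receptor shared by several class 3 ligands, was at 107, 99.3, 103, 95.0 and 95.0 CPM in parental and 111, 99.2, 93.9, 97.2 and 100 CPM in knockout libraries (log2 fold change 0.01 ± 0.064 SE, edgeR adjusted p = 0.958). PLXNA2 was at 21.4, 15.8, 15.3, 14.8 and 14.2 CPM and at 15.1, 16.9, 13.7, 15.7 and 16.5 CPM, with fold changes of opposite sign in shallow (-0.21) and deep (0.13) libraries and an edgeR adjusted p of 0.731 over all. PLXNA3 was at 60.2, 54.7, 59.5, 47.6 and 46.7 CPM and at 52.1, 50, 56.5, 45.5 and 46.1 CPM (edgeR adjusted p = 0.463). In these 3 genes the groups overlapped. Within class A, PLXNA4 made up 43.2 ± 3.74% of the level per kilobase in parental and 18.9 ± 2.62% in knockout cells, and PLXNA1 36.0 ± 1.69% and 52.7 ± 1.34%.

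PLXNB3 (chromosome X, 153764196 to 153779346), a receptor of SEMA5A, was the plexin that rose. It was at 26.4, 28.2, 26.7, 20.6 and 20.7 CPM in parental and 47.4, 41.0, 49.8, 36.6 and 36.9 CPM in knockout libraries, a 1.73-fold rise with ranges apart (log2 fold change 0.79 ± 0.13 SE, edgeR adjusted p = 6.87e-04). It shares 1432 exon bases on the same strand with SRPK3, which was at 1.22 and 1.57 CPM, so reads could be exchanged between these genes. PLXNB2, the most abundant plexin, was at 248, 215, 224, 184 and 181 CPM in parental and 239, 210, 209, 182 and 182 CPM in knockout libraries and was not called (log2 fold change -0.04 ± 0.11 SE, edgeR adjusted p = 0.83). PLXNB1, the SEMA4D receptor, was at 26.8, 22.8, 22.5, 18.8 and 19.1 CPM and at 22.4, 18.1, 21.2, 17.5 and 17.1 CPM. Its log2 fold change of -0.19 was not called over all libraries (edgeR adjusted p = 0.25) and was called with the replicate block (0.00691).

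PLXND1 (ENSG00000004399.13, chromosome 3, 129555175 to 129606818), the receptor of SEMA3E in vessels, was at 43.1, 39.8, 43.1, 35.0 and 35.2 CPM in parental and 25.4, 25.1, 24.5, 21.2 and 21.2 CPM in knockout libraries. The groups were apart, and the level fell to 59.8% of the parental level (log2 fold change -0.74 ± 0.091 SE, edgeR adjusted p = 1.14e-04). Its 15 protein-coding neighbours within 1 Mb had a median log2 fold change of 0.04, with 1 higher and 1 lower. That is 13.3% called, against 36.6% of all genes tested. PLXNC1, the receptor of SEMA7A on leukocytes and melanocytes, was at 1.10, 1.84, 1.57, 1.92 and 1.74 CPM in parental and 1.81, 1.6, 1.71, 2.45 and 2.56 CPM in knockout libraries (edgeR adjusted p = 0.235). It was called with depth as a term (0.32, edgeR adjusted p = 0.0292) and in the deep libraries alone (0.44, 3e-04), and not with the replicate block (0.0512) or in the shallow libraries alone (0.478). It overlaps CEP83 and an unnamed gene on the other strand.

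**Figure D4:**
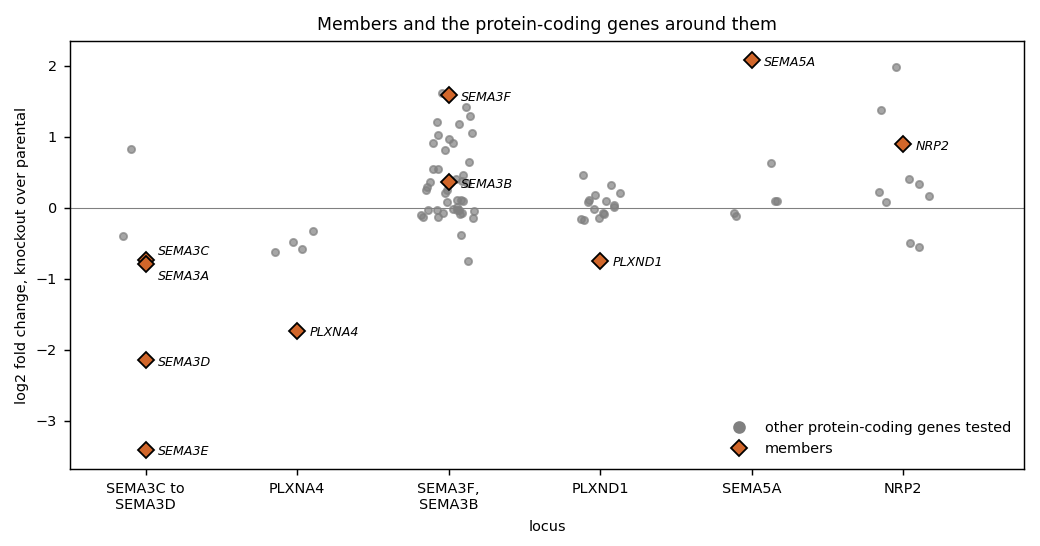
Log2 fold change, knockout over parental (y axis), of members (diamonds) and of the other protein-coding genes tested at the same locus (grey points), within 1 Mb or, for SEMA3C to SEMA3D, between the outer ends. PLXNA4, SEMA5A and PLXND1 lie outside the range of their neighbours, and NRP2 and SEMA3F lie within it.

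The composition of each family changed with these genes. In class 3, SEMA3C made up 68.8 ± 7.47% of the level per kilobase in parental and 45.0 ± 11.5% in knockout cells, and SEMA3F 10.5 ± 3.31% and 33.5 ± 7.31%. The summed level of the class was 62.8 ± 9.19 and 57.8 ± 3.38 CPM per kilobase. The ranges overlapped, with the highest sum in a parental library and the lowest in a knockout library. Because these SDs also hold the gap between the depths, they cannot show whether the sum changed with genotype. Among plexins PLXNA4 went from 17.5 ± 2.76% to 6.11 ± 1.29% and PLXNB3 from 5.04 ± 0.52% to 10.04 ± 0.926%, while PLXNB2 was at 43.1 ± 2.14% and 48.5 ± 1.73%. The plexins summed to 76.2 ± 6.65 and 65.9 ± 5.40 CPM per kilobase. These shares and sums were not tested.

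**Figure D5:**
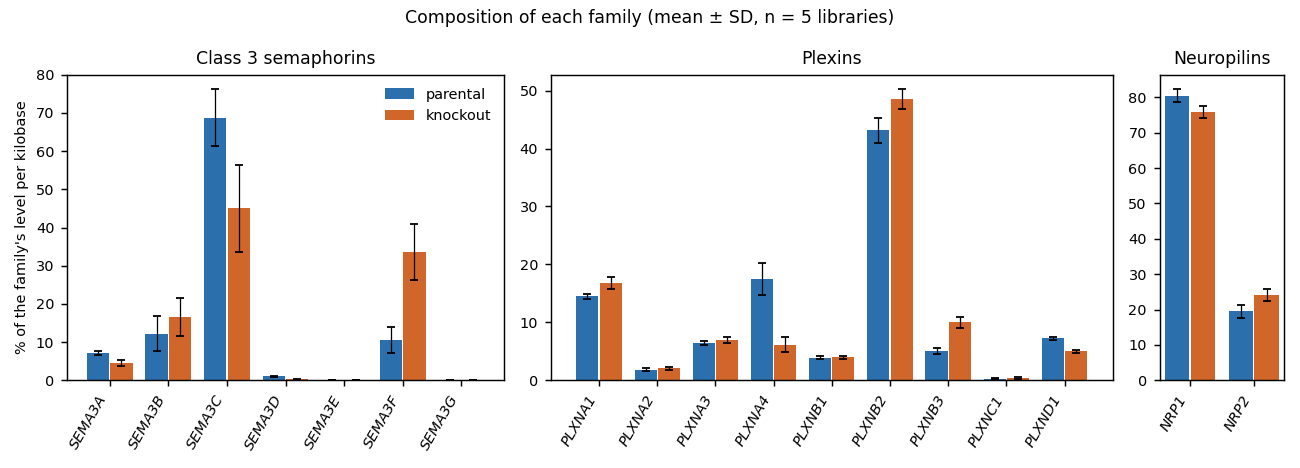
Share of each gene in the level per kilobase of its family (y axis, percent, from 0), parental and knockout, as mean ± SD over 5 libraries. SEMA3C and PLXNA4 take smaller shares in the knockout, and SEMA3F, PLXNB3 and NRP2 larger ones.

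Some known ligand and receptor partners can be set side by side. They were picked with the values known and are not all known pairs. PLXNA1, shared by several class 3 ligands, was not called (0.01). SEMA3F and its co-receptor NRP2 both rose, with log2 fold changes of 1.58 and 0.90, and SEMA5A and PLXNB3 both rose, with 2.08 and 0.79. SEMA3E and PLXND1 both fell, with -3.41 and -0.74. For SEMA3A the ligand (-0.78) and PLXNA4 (-1.73) fell while NRP1 rose (0.51). The class 3 ligands SEMA3C (-0.73) and SEMA3D (-2.15) fell as well, while both neuropilins rose. SEMA3A and SEMA3C were not called with chromosome medians subtracted. SEMA4D fell (-0.54) and PLXNB1 was not called (-0.19), and neither SEMA7A (0.16) nor PLXNC1 (0.31) was called over all libraries without a block or depth term. The partners were measured in the same libraries, and no test of pairing was made.

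The growth factors that share the neuropilins included 2 that rose and 0 that fell among 4 tested of 6 listed. That is 50% called, against 36.6% of all genes tested. VEGFA, the main angiogenic factor, rose from 36.3 ± 3.07 to 55.8 ± 5.65 CPM (edgeR adjusted p = 3.03e-04) and VEGFC, a lymphatic growth factor, from 40.3 ± 3.45 to 66.7 ± 2.94 CPM (2.48e-05). Of 11 other receptor partners of semaphorins and plexins 8 were tested, and 5 fell and 0 rose in the edgeR test. These falls were 62.5% of the partners tested, where 16.9% of all genes fell. The collagen receptor subunit ITGA1 fell from 21.2 ± 5.45 to 11.5 ± 3.00 CPM and ERBB2, a kinase that associates with plexin B1, from 62.6 ± 4.38 to 49.2 ± 5.60 CPM. FLT1 and NRCAM also fell, from levels of 0.314 and 0.268 CPM. ERBB2 is on chromosome 17, whose protein-coding genes had a median log2 fold change of -0.28 beside its own -0.35, FLT1 is on chromosome 13 (median -0.41, own value -1.18) and NRCAM on chromosome 7 (-0.30 and -1.57). MET, a kinase that also associates with plexin B1 and is encoded on chromosome 7, was at 354 ± 70.7 and 229 ± 66.6 CPM with overlapping ranges (edgeR adjusted p = 0.0343), and is named here after its values were seen.

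Among 39 effectors of plexins and their cytoskeletal targets 37 were tested, of which 6 rose, 9 fell and 22 were not called. That is 40.5% called against 36.6% of all genes tested, and the median log2 fold change was -0.10. MRAS, a Ras-family GTPase, rose 7.64-fold from 1.203 ± 0.0353 to 9.20 ± 0.740 CPM (edgeR adjusted p = 8.22e-09), and DPYSL3, a microtubule-binding protein of the collapsin response family, from 333 ± 13.1 to 487 ± 16.5 CPM (1.61e-05). FARP1, a guanine nucleotide exchange factor whose gene is on chromosome 13, dropped from 81.0 ± 4.90 to 38.5 ± 1.83 CPM (6.67e-07). The kinase FYN, whose gene is on chromosome 6, dropped from 59.0 ± 1.81 to 34.5 ± 2.97 CPM (1.25e-05). The median log2 fold changes of protein-coding genes on chromosomes 13 and 6 were -0.41 and -0.32. Of 8 proteases that process semaphorins 2 rose and 1 fell, which is 37.5% called and near the share of all genes. MMP14, which sheds SEMA4D, rose from 311 ± 26.7 to 486 ± 49.0 CPM. PCSK5 rose from 1.46 ± 0.387 to 3.52 ± 0.705 CPM, and ADAMTS1 fell from 973 ± 96.6 to 341 ± 32.3 CPM. With the replicate block, which called 61.2% of all genes, 41 genes of these lists were called in place of 25. In that fit 3 growth factors rose, 5 receptor partners fell, 8 effectors rose and 18 fell, and 5 proteases rose and 2 fell.

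With the replicate number as a block, which absorbs the gap between the depths, 10 members were higher and 9 lower; over all genes the same model called 61.2%, with 31.1% higher and 30.1% lower. The shallow libraries alone called 18 members, where 52.7% of all genes were called, and the deep libraries alone 23, where 57.0% were. With depth as a term 19 were called, against 64.0% of all genes. All 14 members called over all libraries were called in each of these 4 fits. Markers of cell types that are rich in semaphorin receptors moved in part: TUBB3 and SNAP25 of 10 neuronal markers rose and MAP2 fell, with a summed level of 282 to 439 CPM in parental and 400 to 638 CPM in knockout libraries, while RBFOX3, STMN2 and NEFL were under 1 CPM in the mean of each genotype. Of 8 endothelial markers TIE1 rose, CDH5, TEK and EMCN were below the filter, and the summed level was 5.16 to 10.8 and 11.3 to 18.9 CPM. Glial markers went the other way: of 6 listed 1 fell and 0 rose. Their summed level was 8.95 to 9.98 CPM in parental and 4.94 to 7.02 CPM in knockout libraries. The neuronal, endothelial and glial lists held 5, 5 and 4 tested genes, and 36.6% of all genes tested were called. The part of these markers in the results above was not tested.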

How the data were processed

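The unit is the estimated count, a value the authors deposited for each gene in each of the 10 libraries and made with kallisto 0.48.0 and hg38, per the submitters' processing notes. The annotation release, the step from transcripts to genes and strand-specific counting are not given here by any label or header, which leaves genes that overlap uncertain. Counts were rounded. filterByExpr with genotype kept 18979 of 62700 genes and 29 of 31 members. After TMM scaling, edgeR 4.0.16 (R 4.3.3) fitted a robust quasi-likelihood model on genotype, with Benjamini-Hochberg adjustment over all genes tested and a threshold of 0.05. Single members were also tested by exact two-sided permutation of log2 CPM (prior count 3, 252 arrangements). The edgeR fits with and without the replicate block were also run on simulated counts. Those counts held the depth gap but the same spread for every gene, so they do not measure error rates in these data.

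Positions and lengths are from GENCODE release 29 (GRCh38, the assembly of hg38); unversioned gene IDs found a position for 95.1% of genes tested. Promoters are RefSeq windows (GRCh38.p14). Members, gene lists and tests were chosen with earlier results of these data known. Genes given in every sample are members past 0.05 with at least 2 CPM, the neuropilins and every plexin of at least 2 CPM. SEMA3E, under that level, was added after its values were seen. From each list up to 4 genes with the smallest adjusted p were named, 2 in each direction where possible.

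Samples with one replicate number shared their deviations from the genotype mean (correlations 0.584 to 0.899, all over 0.1). The main fit and the permutation test held no replicate term. The replicate number entered only as a block in an alternative fit. The shared deviations follow depth. Each shallow number of the parental cells correlated best with knockout replicate 1 and each deep number with replicate 4. Alternatives were DESeq2 1.42.0, limma-voom (limma 3.58.1), other scalings and filters, no robust step, the replicate block, depth terms and subsets, thinning, chromosome medians subtracted, and each library left out.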

Additional observations from a re-analysis of the deposited data

Results flagged for a closer look

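In 58 groups of 5 libraries (29 members in each genotype) 1 library stood apart from its group by Dixon's test at the 95% level, where chance alone gives about 1 in 20 groups. PLXNA2 was at 21.4 CPM in parental replicate 1, and the next highest parental library was at 15.8 CPM. Without that library the log2 fold change of PLXNA2 was 0.0504, in place of -0.06, and it was called in neither fit.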

How the results depend on the processing

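The number of members that rose was 7, and it was 11 with depth as a term and 15 in the deep libraries alone. The 7 falls stayed within 1.5 times that number in every alternative run. Ligands called were 9 and receptors called 5, with 15 and 8 in the deep libraries alone. Without 1 library, 6 to 7 members rose, 6 to 7 fell, 7 to 9 ligands and 5 receptors were called. List genes called were 25, with 41 under the replicate block, 43 with depth as a term, 38 in shallow and 46 in deep ones alone, and 21 to 28 without 1 library. Over all genes 3741 rose and 3198 fell, with 5906 and 5713 under the block, 6200 and 5949 with depth as a term, and 7775 and 7545 in the deep libraries. With 1 library left out, 12 to 14 of the 29 members that passed the filter on low counts were under 0.05 in the exact permutation test (14 over all libraries). With no filter on low counts more genes were tested and 13.6% of them were called.

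The 14 calls were all kept with DESeq2, DESeq2 size factors, limma-voom, no robust step and thinned deep libraries. SEMA3C lost its call with library size only (log2 fold change -0.666, adjusted p = 0.0539) and with no filter (-0.75, 0.0536). The replicate block changed the calls of PLXNB1, SEMA3B, SEMA6A, SEMA6B and SEMA7A, given above, and ended none. The deep libraries alone also called PLXNA2, PLXNC1, SEMA4C, SEMA4G and SEMA6C. Signs turned for members that were not called. PLXNA1 had log2 fold changes of -0.0226 with DESeq2 size factors, -0.0223 with DESeq2, -0.00814 with no filter, -0.0333 in the shallow libraries, -0.00467 with thinning, -0.0287 with chromosome medians subtracted, and -0.0423 to 0.0313 without 1 library. PLXNA2 was at 0.133 in the deep libraries, where it was called (edgeR adjusted p = 0.0059), and at -0.113 to 0.0504 without 1 library. SEMA4A was at -0.139 in the deep libraries. PLXNB2 was at 0.0143 with library size only and at -0.111 to 0.024 without 1 library, with 0.00037 without knockout replicate 5. Without 1 library SEMA3G was at -0.321 to 0.542 and SEMA6C at -0.0522 to 0.426. Of the alternative fold changes of members 602 kept their sign and side of the threshold, 22 were past it where the main value was not, 15 lost it and 23 turned sign. Alternatives for the interaction test, the permutation test and the lists, and the count over any listed promoter, were added after the data were seen.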
